A study of Mus musculus with 6 samples.

Results

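The genes described here are 10 chains of the integrins that epithelial tumour cells use to hold on to laminin, collagen and fibronectin: the alpha chains Itga1, Itga2, Itga3, Itga5, Itga6 and Itgav and the beta chains Itgb1, Itgb4, Itgb5 and Itgb6. They were taken by gene symbol, whatever their values, and all 10 were found among the 57508 genes of the deposited tables. KPC1199 is a mouse cell line that the labels call pancreatic tumour cells. RNA of these cells was sequenced in 6 libraries, 3 of WT cells and 3 with knockdown of ACSL5, an enzyme that joins long-chain fatty acids to coenzyme A, and the series was made to look at the role of ACSL5 in pancreatic ductal adenocarcinoma. Library names start with siACSL5 in both groups and go on with CY3 for WT and a number for the knockdown, without any label that explains either. The knockdown titles read KO where the genotype field reads knockdown. Whether the libraries of a group are separate cultures is not labelled, and the p-values cover the spread among these libraries only, part of which may be technical.

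An integrin is a pair of 1 alpha and 1 beta chain, both of which cross the plasma membrane. The pair binds matrix proteins outside the cell and, through the short tail of the beta chain, proteins that lead to actin inside it. Itgb1 is the common partner of Itga1 and Itga2 at collagen, of Itga3 and Itga6 at laminin and of Itga5 at fibronectin. Itgb4 pairs with Itga6 and, by its long tail, ties laminin to keratin filaments in hemidesmosomes. Itgav pairs with Itgb1, Itgb5 or Itgb6 and binds the RGD motif of vitronectin, fibronectin and latent TGF-beta. A chain that finds no partner is kept back in the endoplasmic reticulum, so surface receptor depends on both chains. Transcripts alone were measured here.

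The libraries held between 21794244 and 29996194 expected counts, and between 19852 and 21782 genes were above 0. WT replicate 1 stood apart. Its log-scale correlation with the other libraries lay between 0.902 and 0.921, against 0.972 to 0.992 among the other 10 pairs of libraries. Each comparison is therefore given over all 6 libraries and over the 5 libraries without WT replicate 1. Acsl5 was at 342, 265 and 270.2 CPM (counts scaled to library size with TMM factors) in WT replicates 1 to 3 and at 49.8, 55.6 and 57.2 in the knockdown libraries, 18.5% of the WT mean. Its groups did not overlap, and its log2 fold change was -2.43 (SE 0.167, adjusted p = 0.0619) over 6 libraries and -2.32 (SE 0.0638, adjusted p = 5.95e-08) over 5. The exact two-sided permutation test gave p = 0.1, the smallest that 20 assignments of the libraries allow.

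Epithelial markers stood high, with Krt19, a keratin of duct cells, at a mean of 4523 TPM (a level scaled for transcript length and library size) over the 6 libraries. The summed level of the 10 epithelial markers was 8724 to 9383 TPM in WT and 8114 to 8893 TPM in the knockdown, and Cldn4 was listed at 0. Of 9 fibroblast markers 5 stayed below 1 TPM, with Lum and Fap listed at 0 in every library, and Col3a1, a fibrillar collagen, was at a mean of 57.9 TPM. The fibroblast list summed to 42.6 TPM in WT replicate 1, 98.0 and 103 TPM in WT replicates 2 and 3, and 76.6 to 84.7 TPM in the knockdown libraries. Of 9 leukocyte markers 6 stayed below 1 TPM, with Cd3e listed at 0, and Cd14, a receptor for bacterial lipopolysaccharide, was at a mean of 71.5 TPM. This list summed to 54.1, 70.6 and 68.5 TPM in WT replicates 1 to 3 and to 93.8 to 96.2 TPM in the knockdown libraries. Of 6 endothelial markers 5 stayed below 1 TPM, and the list summed to 0.97 to 5.35 TPM in WT and 1.73 to 2.27 TPM in the knockdown. Of 6 acinar markers 4 stayed below 1 TPM, with Pnlip and Ptf1a listed at 0, and the list summed to 16.1, 9.52 and 12.3 TPM in WT replicates 1 to 3 and to 14.8 to 17.7 TPM in the knockdown libraries. The 4 platelet markers summed to 3.26 to 4.07 TPM in WT and 4.01 to 6.07 TPM in the knockdown.

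The laminin receptor chains led the levels. Averaged over the 5 libraries, Itga6 was at 253 TPM, Itga3 at 211 TPM and Itgb1 at 201 TPM. Itgb5 followed at 88.4 TPM, Itgav at 43.9 TPM, Itgb4 at 29.9 TPM, Itga2 at 19.0 TPM and Itga5 at 16.5 TPM. Itga1 was low at 2.47 TPM and Itgb6 was close to absent at 0.264 TPM. Over these 5 libraries the ranges of neighbours in this order overlapped for Itga6 with Itga3 and for Itga3 with Itgb1, and did not overlap for the other 7 pairs of neighbours. Itga6 was above Itga3 in 6 of 6 libraries, and Itga3 above Itgb1 in 4 of 6. Itgb4, whose known partner is Itga6, was far below Itga6. The ratio of Itga6 to Itgb4 TPM was 17.4, 9.70 and 10.5 in WT replicates 1 to 3 and 8.05, 6.70 and 7.39 in the knockdown libraries.

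Over all 6 libraries no integrin chain differed between the groups by the edgeR quasi-likelihood test. The count was 0 of 10, against 0.0% of the 14679 genes tested. At an unadjusted p below 0.05 there were 2351 genes, DESeq2 called 1127 genes (7.68%) and limma-voom 8, and neither of these tools called an integrin chain. Log2 fold changes of the 10 chains ran from -0.23 to 0.35 with a median of -0.07, against -0.02 over all genes tested, and 7 of 10 were negative. In 1 of 10 chains, Itgb5, every knockdown library lay below every WT library in CPM, a pattern held by 15.6% of all genes tested. In TPM the Itgb5 groups overlapped.

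Without WT replicate 1, 6 chains fell with the knockdown: Itga6, Itgav, Itga3, Itga1, Itgb1 and Itga2. In this comparison 18.0% of 15152 genes were called lower and 16.3% higher (2722 and 2471 genes, 34.3% together). At a threshold of 0.01, where 11.4% of genes were called lower, Itga6, Itgav and Itga3 remained. No chain rose, and Itga5, Itgb4, Itgb5 and Itgb6 did not pass the test. The median log2 fold change of the 10 chains was -0.18, against -0.01 over all genes tested, and the values ran from -0.54 to 0.50. In CPM, every knockdown library lay below WT replicates 2 and 3 in 8 of 10 chains, against 29.3% of genes tested. The groups of Itga5 and Itgb6 overlapped. In TPM those of Itga1, Itgb4 and Itgb5 overlapped as well. Itga1 was at 2.42 and 3.28 TPM in WT replicates 2 and 3 and at 1.84, 2.37 and 2.43 TPM in the knockdown libraries. The share of all genes with this pattern in TPM was not computed. In these bulk libraries, fewer cells that express a chain and less RNA per cell cannot be told apart.

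Markers of other cell types also differed in the 5 libraries in which the chains fell, and none did over 6. Of 5 tested fibroblast markers 2 fell and 1 rose: Col3a1 at -0.27 (SE 0.0504, adjusted p = 0.00203) and the growth factor receptors Pdgfra at -0.62 (adjusted p = 2.36e-05) and Pdgfrb at 0.73 (adjusted p = 0.000468). Of 3 tested leukocyte markers Cd14 rose, at 0.44 (SE 0.0557, adjusted p = 0.000219). Of 2 tested acinar markers Cela1, an elastase, rose from 4.53 to 7.94 CPM, at 0.78 (SE 0.184, adjusted p = 0.00778), or 0.54 (adjusted p = 0.0885) without WT replicate 2. The endothelial and platelet lists held no called gene among 1 and 2 tested. Of 9 tested epithelial markers 4 rose (Krt7, Krt18, Cdh1 and Muc1) and Epcam fell. Pdgfra, Pdgfrb and the called epithelial markers were named after their values were seen. The part of these differences in the integrin results was not tested.

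**Figure D1:**
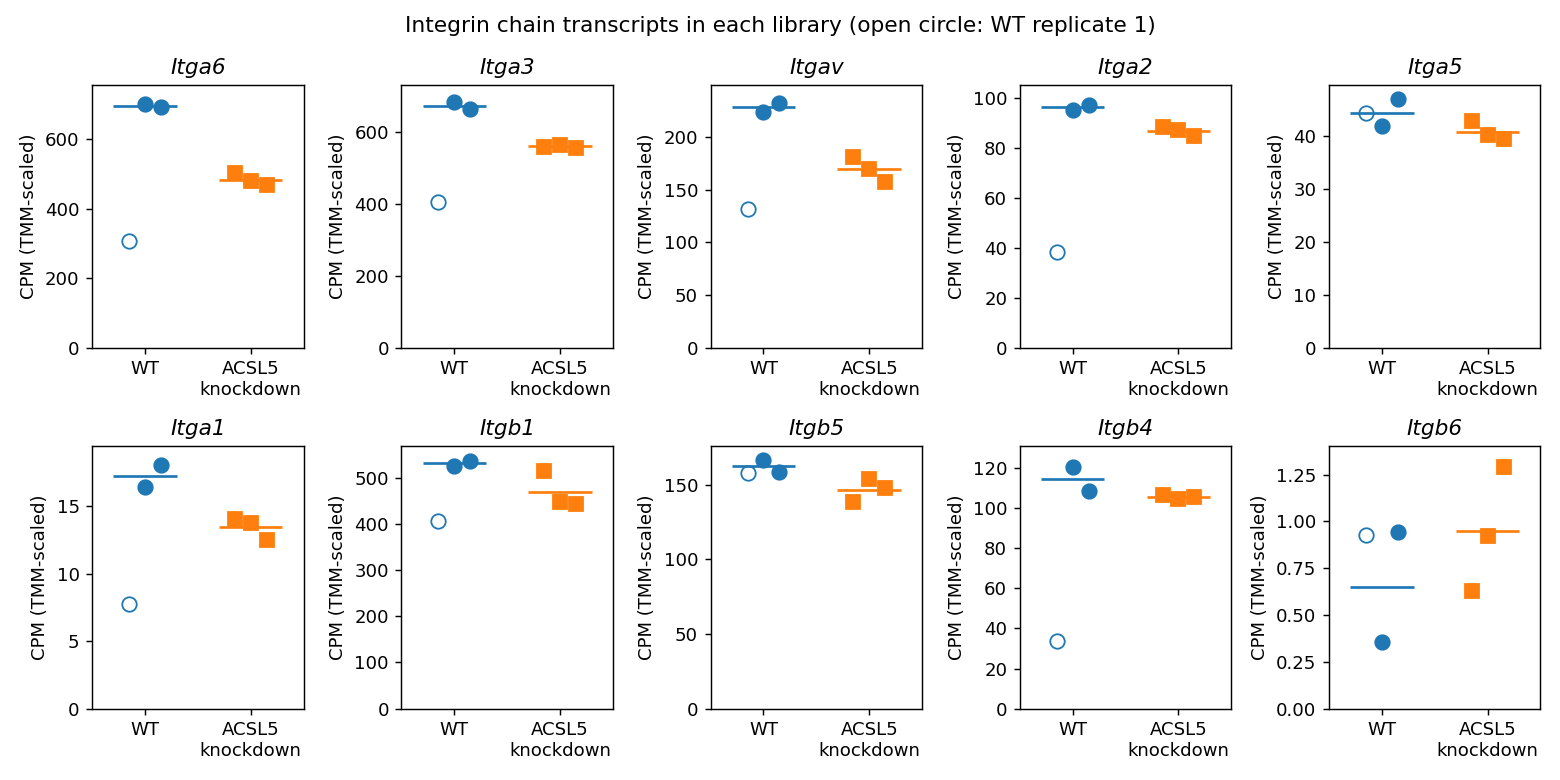
Level of each integrin chain in CPM (TMM-scaled, linear axis from 0) in the WT and ACSL5 knockdown libraries, 1 point per library, with WT replicate 1 as an open circle. In Itga6 the knockdown libraries at 468 to 502 CPM lie between WT replicate 1 at 308 CPM and WT replicates 2 and 3 at 691 and 699 CPM, while in Itgb5 they lie below every WT library.

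Itga6 (ENSMUSG00000027111, chr2:71745616-71858416 on GRCm38, plus strand) is the alpha chain of the laminin receptors. It was at 308, 699 and 691 CPM in WT replicates 1 to 3 and at 502, 478 and 468 CPM in the knockdown libraries. The knockdown libraries were tight and lay below WT replicates 2 and 3 but above WT replicate 1. The knockdown mean of 483 ± 17.3 CPM (SD, n = 3) was 69.5% of the 695 ± 6.17 CPM (SD, n = 2) in WT replicates 2 and 3. The log2 fold change was -0.54 (SE 0.0426, adjusted p = 1.48e-05) over 5 libraries and -0.23 (SE 0.328, adjusted p = 0.733) over 6. In the 19 alternative settings of the 5-library comparison it was called lower each time, at -0.56 to -0.50.

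Itga3 (ENSMUSG00000001507, chr11:95044474-95076801, minus strand) is the other laminin-binding alpha chain, paired with Itgb1. The WT libraries held 406, 683 and 665 CPM and the knockdown libraries 558, 566 and 557 CPM. The knockdown values again sat between WT replicate 1 and the other WT libraries. They averaged 560.4 ± 4.65 CPM (SD, n = 3) against 674 ± 12.9 CPM (SD, n = 2), which is 83.2%. The log2 fold change was -0.28 (SE 0.0413, adjusted p = 0.000562) over 5 libraries and -0.06 (SE 0.231, adjusted p = 0.902) over 6. The call held in 18 of 19 settings and was lost on unfiltered log2(TPM + 1) values (adjusted p = 0.0644).

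Itgb4 (ENSMUSG00000020758, chr11:115974709-116008412, plus strand) is the hemidesmosome chain. It stood at 33.7, 121 and 109 CPM in WT replicates 1 to 3 and at 107, 105 and 106 CPM in the knockdown libraries. Setting WT replicate 1 aside, the knockdown libraries lay just under WT replicate 3, and the mean of 106 ± 0.932 CPM (SD, n = 3) was 92.2% of 115 ± 8.60 CPM (SD, n = 2). Its log2 fold change was -0.13 (SE 0.0563, adjusted p = 0.0938) over 5 libraries and 0.27 (SE 0.45, adjusted p = 0.775) over 6, so neither comparison called it.

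Itgb1 (ENSMUSG00000025809, chr8:128685654-128733200, plus strand) is the beta chain shared by most of the alpha chains here. It was at 406, 526 and 536 CPM in WT replicates 1 to 3 and at 515, 449 and 444 CPM in the knockdown libraries. Knockdown replicate 1 lay close to WT replicates 2 and 3, and the other knockdown libraries were lower. The knockdown mean of 469 ± 39.7 CPM (SD, n = 3) stood against 531 ± 6.66 CPM (SD, n = 2), and the log2 fold change was -0.20 (SE 0.0591, adjusted p = 0.028) over 5 libraries and -0.06 (SE 0.175, adjusted p = 0.873) over 6. This call held in 8 of 19 settings and was lost when any of WT replicates 2 and 3 or knockdown replicates 2 and 3 was also left out (adjusted p = 0.123, 0.179, 0.157 and 0.133).

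The collagen-binding chains Itga1 and Itga2 lie next to each other on chromosome 13 in the same orientation, at chr13:114953096-115101964 (ENSMUSG00000042284) and chr13:114833081-114932100 (ENSMUSG00000015533), minus strand. Itga1, the chain for basement membrane collagen, was at 7.75, 16.4 and 18.0 CPM in WT replicates 1 to 3 and at 14.1, 13.8 and 12.5 CPM in the knockdown libraries. Apart from WT replicate 1, which was the lowest of all, the groups did not overlap, and the knockdown mean was 77.9% of WT. Its log2 fold change was -0.38 (SE 0.0996, adjusted p = 0.0138) over 5 libraries and -0.07 (SE 0.318, adjusted p = 0.919) over 6. Itga2, the chain for fibrillar collagen, was at 38.4, 95.2 and 97.2 CPM in WT replicates 1 to 3 and at 88.5, 87.1 and 84.8 CPM in the knockdown libraries. Here too WT replicate 1 was the lowest library, and the knockdown mean was 90.2% of WT replicates 2 and 3. The log2 fold change of Itga2 was -0.16 (SE 0.0481, adjusted p = 0.0223) over 5 libraries and 0.17 (SE 0.353, adjusted p = 0.819) over 6. The call of Itga1 held in 12 of 19 settings and that of Itga2 in 7. Leaving out WT replicate 3 as well raised the adjusted p to 0.148 and 0.174, leaving out knockdown replicate 3 to 0.0582 and 0.0788. Itga2 also lost its call without WT replicate 2 (adjusted p = 0.1) and without knockdown replicate 2 (adjusted p = 0.0797).

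Itgav (ENSMUSG00000027087, chr2:83724397-83806916, plus strand) is the alpha chain of the RGD receptors. It was at 132, 224 and 233 CPM in WT replicates 1 to 3 and at 181, 169 and 158 CPM in the knockdown libraries. The knockdown libraries lay between WT replicate 1 and the other WT libraries, at 74.3% of the latter (169 ± 11.9 CPM, SD, n = 3, against 228 ± 6.24 CPM, SD, n = 2). The log2 fold change was -0.45 (SE 0.0556, adjusted p = 0.00021) over 5 libraries and -0.21 (SE 0.24, adjusted p = 0.669) over 6. In each of the 19 settings over 5 libraries it was called lower, at -0.49 to -0.32. Over 6 libraries it was the 1 chain called once each library's trend with gene length was removed, at -0.41 (adjusted p = 0.0449), where 3.07% of genes were called lower.

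Its RGD partners Itgb5 and Itgb6 and the fibronectin chain Itga5 did not pass the test. Itgb5 (ENSMUSG00000022817, chr16:33829665-33949338, plus strand), a vitronectin receptor chain, was at 158, 166 and 158 CPM in WT replicates 1 to 3 and at 139, 154 and 148 CPM in the knockdown libraries. It is the chain whose groups did not overlap in CPM even with WT replicate 1. In TPM they did overlap, with WT replicate 1 lowest at 60.79 TPM and the other 5 libraries at 77.8 to 94.25 TPM. The gap in CPM was small, with log2 fold changes of -0.13 (SE 0.122, adjusted p = 0.596) over 6 libraries and -0.16 (SE 0.0577, adjusted p = 0.052) over 5. Itga5 (ENSMUSG00000000555, chr15:103344286-103366763, minus strand) was at 44.3, 41.8 and 46.8 CPM in WT replicates 1 to 3 and at 42.7, 40.2 and 39.3 CPM in the knockdown libraries. These values overlapped, at log2 fold changes of -0.12 (SE 0.12, adjusted p = 0.618) and -0.14 (SE 0.0698, adjusted p = 0.149) over 6 and 5 libraries. Itgb6 (ENSMUSG00000026971, chr2:60598292-60722643, minus strand), which activates latent TGF-beta in epithelia, had 17, 8 and 29 expected counts in WT replicates 1 to 3 and 15, 25 and 35 in the knockdown libraries. At this depth a difference was not detectable (log2 fold change 0.50, SE 0.499, adjusted p = 0.484 over 5 libraries).

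**Figure D2:**
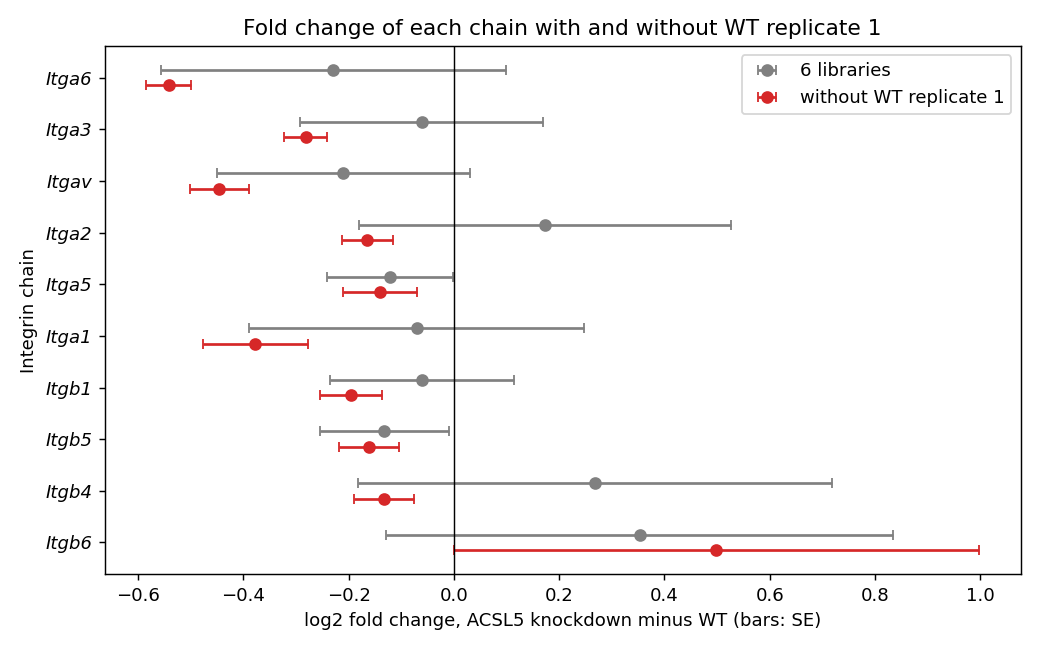
Log2 fold change (ACSL5 knockdown minus WT, x axis) of each integrin chain (y axis), with bars for its SE, over 6 libraries and over the 5 libraries without WT replicate 1. Itga6 at -0.54 and Itgav at -0.45 lie lowest over 5 libraries, and the bars over 6 libraries are wider for every chain except Itgb6, where they are alike.

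The low values of WT replicate 1 were uneven among the chains. Against the mean of the other 5 libraries on the log2 scale, it stood at -1.68 in Itgb4, -1.23 in Itga2, -0.89 in Itga1, -0.86 in Itga6, -0.57 in Itga3, -0.53 in Itgav and -0.28 in Itgb1, and at 0.05 in Itgb5, 0.07 in Itga5 and 0.15 in Itgb6. Long genes as a whole were low in this library. Genes were put in 10 equal bins by length, and the median of a chain's own bin was -0.94 for Itga1, Itga2 and Itgav, -0.61 for Itga3, Itgb4 and Itgb6, -0.39 for Itga5 and Itgb1, -0.23 for Itga6 and -0.10 for Itgb5. Itgb4, Itga6 and Itga2 were therefore further below the other libraries than the median of their bin, and the other 7 chains were not. Of the genes in the bin, 4.56% stood lower than Itgb4, 14.7% lower than Itga6 and 29.8% lower than Itga2. For the other 7 chains this share was 52.5% to 86.0%.

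Base composition also moved with the fold change over 5 libraries. Itgb4 (60.0% GC), Itga3 (57.9% GC), Itga5 (57.3% GC) and Itgb5 (57.0% GC) lay in the 2 of 10 equal bins of genes richest in GC, whose median log2 fold changes were 0.31 and 0.13. Itga6 (48.9% GC) lay in a middle bin with a median of -0.03, and Itga2, Itgav, Itgb1 and Itgb6 in a bin with a median of -0.10. With each library's trend with GC content removed, 6 chains were again called lower, where 16.3% of genes were, but they were not the same 6. Itga6 at -0.50 (adjusted p = 2.5e-05), Itga3 at -0.49 (adjusted p = 2.0e-05) and Itgav at -0.32 (adjusted p = 0.0011) stayed called. Itgb4 at -0.46 (adjusted p = 9.6e-05), Itgb5 at -0.32 (adjusted p = 0.00126) and Itga5 at -0.32 (adjusted p = 0.00807) joined them. Itga1 at -0.25 (adjusted p = 0.0729), Itgb1 at -0.09 (adjusted p = 0.297) and Itga2 at -0.04 (adjusted p = 0.537) dropped out. On log2(TPM + 1) values, limma-trend called Itga6 at -0.52 (adjusted p = 0.00849), Itgav at -0.37 (adjusted p = 0.0156) and Itga3 at -0.28 (adjusted p = 0.0316), where 7.26% of genes were called lower (1459 genes higher and 1008 lower).

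**Figure D3:**
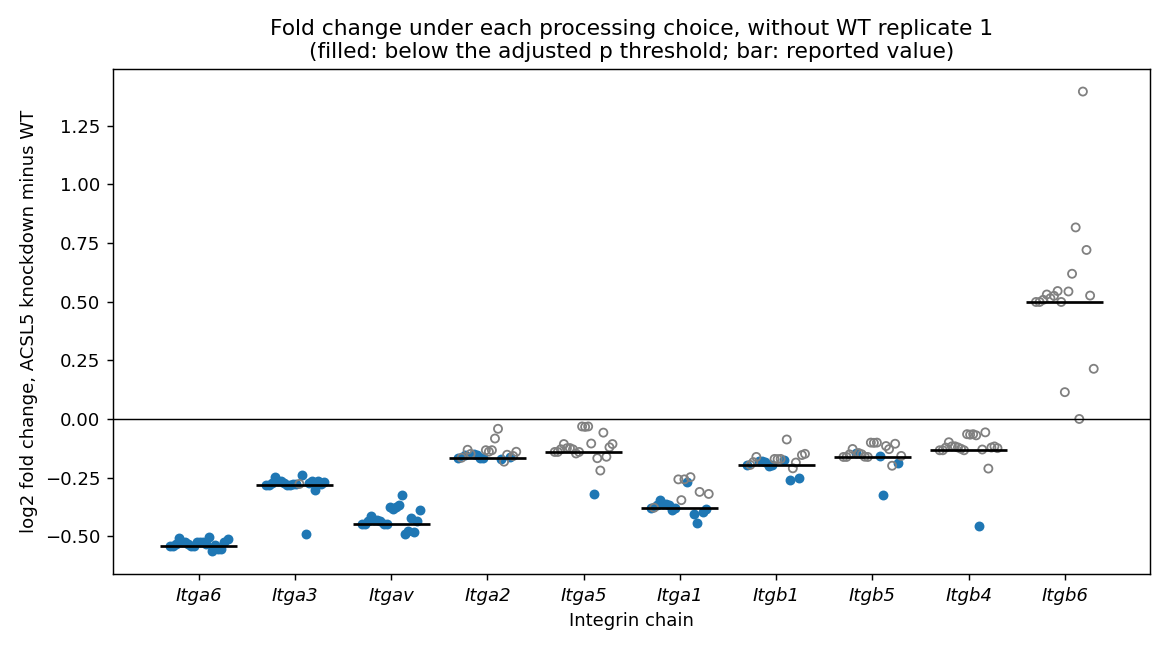
Log2 fold change (y axis) of each integrin chain (x axis) over 5 libraries, with a line for the value as reported and 1 point for each setting, filled blue where called. Itga6 and Itgav are filled throughout, at -0.56 to -0.50 and -0.49 to -0.32, and the other chains hold open points.

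Within a library, the chains did not keep fixed proportions. These shares of summed TPM are descriptions without a test. They add up to the whole, so a lower share of 1 chain goes with higher shares of others. Itga6 made up 42.2%, 48.4% and 49.1% of the alpha chain TPM in WT replicates 1 to 3 and 45.1%, 44.0% and 44.1% in the knockdown libraries, which lay below WT replicates 2 and 3 and above WT replicate 1. Itga3 made up 32.9%, 38.0% and 36.0% in WT and 39.6%, 40.3% and 40.0% in the knockdown libraries, each above every WT library although its own level fell over 5 libraries. Itga2 moved the same way, from 1.96%, 3.08% and 3.25% to 3.74%, 3.79% and 3.77%. Itgav took 17.8% in WT replicate 1 but 7.70% to 8.34% in the other 5 libraries. Among the beta chains Itgb1 took 58.1%, 62.7% and 64.5% in WT and 66.2%, 60.1% and 60.6% in the knockdown libraries, and all 4 beta shares overlapped between the groups. The summed alpha TPM was 220.4, 646 and 627 in WT and 485, 492 and 481 in the knockdown libraries, while the summed beta TPM was 158, 339 and 336 in WT and 311, 308 and 301 in the knockdown libraries. The alpha sum over the beta sum was thus 1.90 and 1.86 in WT replicates 2 and 3, 1.56, 1.60 and 1.60 in the knockdown libraries, and 1.39 in WT replicate 1.

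**Figure D4:**
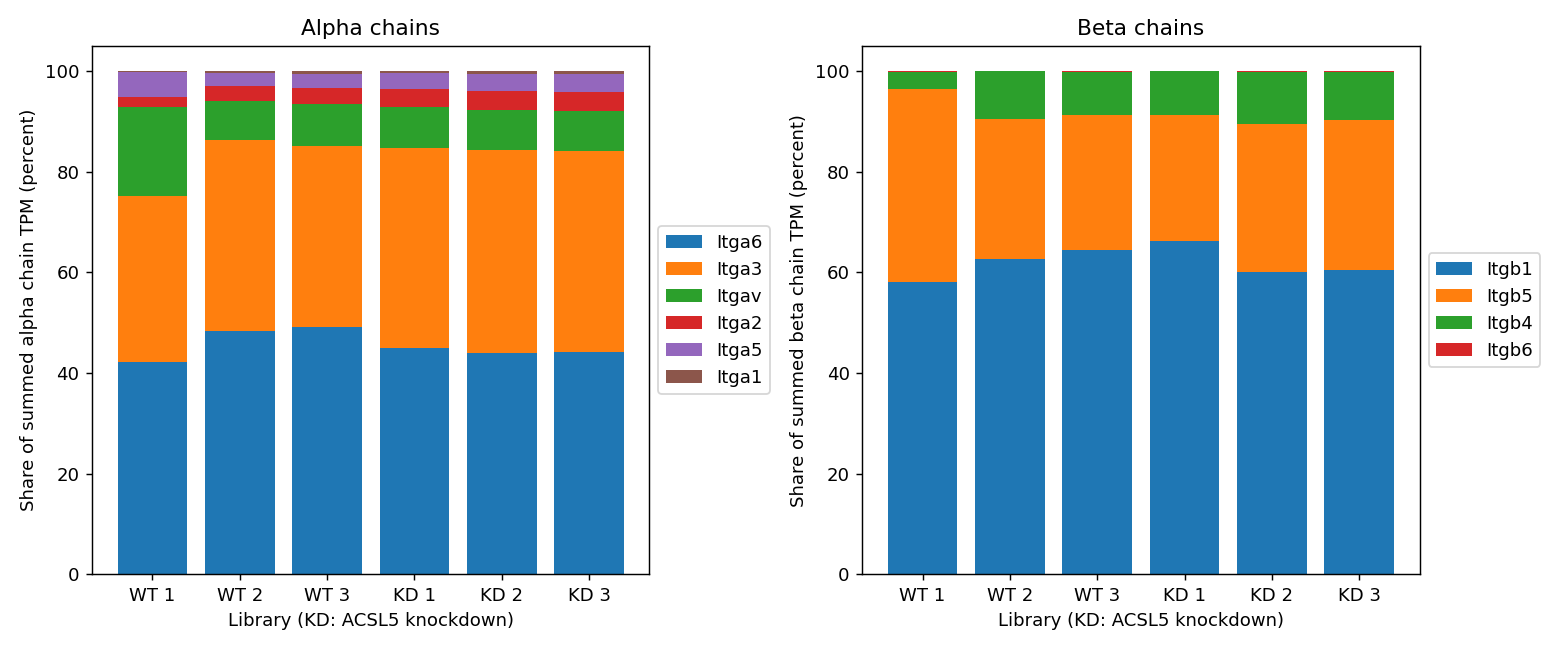
Share of each chain in the summed TPM of the alpha chains and of the beta chains (percent, stacked to the full bar), 1 bar per library. The Itga3 band is wider in the knockdown libraries (39.6% to 40.3%) than in the WT libraries (32.9% to 38.0%), and WT replicate 1 has the widest Itgav band at 17.8%.

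Reference promoters are shown for the lowered Itgav and for Itgb1, the common partner, since the 6 called chains moved in 1 direction. RefSeq windows of the 250 bases before a start (GRCm38.p6) were found for 8 of 10 chains, 10 windows in all, and none was used for Itga6 and Itgb4. Capitals mark motif matches on either strand, for Itgb1 a GC box (GGGCGG) and a TEAD core (GGAATG), and the Itgav window, chr2:83724147-83724396 on the plus strand, holds no match.
Itgav: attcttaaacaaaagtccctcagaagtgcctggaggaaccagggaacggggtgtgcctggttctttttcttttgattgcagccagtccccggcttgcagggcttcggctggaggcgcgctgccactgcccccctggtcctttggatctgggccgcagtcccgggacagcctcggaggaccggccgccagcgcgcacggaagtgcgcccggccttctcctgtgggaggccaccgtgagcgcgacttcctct
The Itgb1 window is chr8:128685404-128685653 on the plus strand.
Itgb1: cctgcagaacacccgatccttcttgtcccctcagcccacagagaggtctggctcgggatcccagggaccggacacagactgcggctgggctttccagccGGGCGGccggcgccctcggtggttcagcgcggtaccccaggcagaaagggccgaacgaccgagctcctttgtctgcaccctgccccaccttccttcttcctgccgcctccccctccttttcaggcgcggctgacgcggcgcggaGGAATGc
Of the 10 windows, 5 held the GC box, against 32.7% of all 32851 windows of this length. The TEAD core was in 1 (12.6% of all) and CCAAT in 1 (33.8%). The AP-1 motif TGANTCA (6.75%), the ETS motif CCGGAAGT (2.88%) and TATAAA (12.4%) were in none. A match is a description of the letters only.

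Sites in 3' UTRs are shown for 2 sequences of 7 bases, GAACTAC and AACTACA, that an earlier look at these same fold changes had picked out, so they support nothing here. Both occur in the Acsl5 coding transcript before the stop codon, GAACTAC in 2 places and AACTACA in 1. The Acsl5 3' UTR holds AACTACA in 1 place as well. In GENCODE M21, 3 of the 10 chains hold a site, in capitals below.
Itga1: catcgtgtgtGAACTACtgctgtaaaa
Itga1: aatggcattaAACTACAgcattgtgtc
Itga2: caagtaattaAACTACAcctgaatttg
Itgb6: tattgcactcAACTACAgtcttcaaaa
Itga1 and Itga2 were among the 6 chains that fell over 5 libraries, while Itgb6 was not called, and Itga6, Itgav, Itga3 and Itgb1 fell with no site. Of UTRs of like length (0.8 to 1.25 times), 46.9% held a site for Itga1, 26.0% for Itga2, 17.2% for Itgb6 and 11.5% for Acsl5.

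The other genes of integrin adhesion moved in both directions. Over 6 libraries none of the 125 tested genes in 8 lists was called, at 0.0% of all genes by edgeR. DESeq2 called 12 of them, against 7.68% of all genes. Over 5 libraries 35 of 128 rose and 32 fell, against 16.3% and 18.0% of all genes. With the GC trend removed the split was 24 higher and 36 lower, against 16.2% and 16.3% of all genes. Values below are over 5 libraries, with CPM means for WT replicates 2 and 3 and for the knockdown, and no named gene was called over 6 libraries.

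Of 17 further integrin chains 10 stayed below 1 TPM and 9 could be tested. Itga7, a laminin-binding chain known from muscle, rose. Its knockdown mean was 26.9 ± 2.06 CPM (SD, n = 3) against 14.2 ± 1.41 CPM (SD, n = 2), a difference of 0.91 on the log2 scale (SE 0.104, adjusted p = 0.000127), against the direction of Itga3 and Itga6. Every knockdown library, at 24.9 to 29.1 CPM, was above every WT library, at 10.6 to 15.2 CPM, although over 6 libraries the value of 1.05 had an adjusted p of 0.104. Itgb3, another beta partner of Itgav, fell to 65.9 ± 3.94 CPM (SD, n = 3) against 77.6 ± 1.21 CPM (SD, n = 2), at -0.25 (SE 0.0592, adjusted p = 0.00778). The leukocyte chain Itgb7 was level at 0.04 (adjusted p = 0.718), with 69.1 CPM in WT replicate 1 and 24.0 to 25.2 CPM in the other libraries. Itga2b at 0.77 (adjusted p = 0.0692) and Itgb2 at 0.69 (adjusted p = 0.0645) were not called.

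Among the ligands, 11 of 27 tested genes rose and 7 fell, with a median of 0.07. Thbs1, thrombospondin, rose from 147 to 235 CPM (0.67, adjusted p = 8.25e-06) and Ccn1, a matricellular ligand of Itgav pairs, from 14.4 to 24.1 CPM (0.72, adjusted p = 0.000979). Adam9, a surface protease with a disintegrin domain, fell from 309 to 185 CPM (-0.76, adjusted p = 2.80e-06). Spp1, osteopontin, a ligand of Itgav pairs, fell from 2321 to 1724 CPM (-0.44, adjusted p = 8.53e-05).

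Of 19 genes of integrin activation and the actin link, 4 rose and 6 fell, with a median of -0.08. Lpp, a LIM protein of adhesions, fell from 181 to 127 CPM (-0.53, adjusted p = 2.11e-05). The talin-binding proteins Kank1 and Kank2 went opposite ways, Kank1 from 49.2 to 34.8 CPM (-0.51, adjusted p = 0.00147) and Kank2 from 58.0 to 72.2 CPM (0.30, adjusted p = 0.00286). Tns3, a tensin that binds beta tails, rose from 314 to 393 CPM (0.31, adjusted p = 0.000421). The call of Kank2 was lost with the GC trend removed (0.12, adjusted p = 0.138).

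Of 23 tested kinases and adaptors 5 rose and 10 fell, with a median of -0.16. Yes1, a kinase of the Src family, fell from 50.1 to 23.4 CPM (-1.11, adjusted p = 4.32e-06), and each knockdown library lay below each WT library. Parvb, which links the kinase Ilk to actin, fell from 35.4 to 19.1 CPM (-0.91, adjusted p = 4.95e-05). The scaffold Bcar1 rose from 47.0 to 69.0 CPM (0.54, adjusted p = 0.000238), or by 0.22 (adjusted p = 0.0112) with the GC trend removed, and its partner Crkl rose from 108 to 153 CPM (0.49, adjusted p = 0.000475).

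Of 8 inhibitors of integrin activation or signalling 2 rose and 1 fell. The phosphatase Ptpn12 fell from 143 to 119 CPM (-0.28, adjusted p = 0.00123), and was at -0.17 (adjusted p = 0.0184) with the GC trend removed. The phosphatase Ppm1f at 0.18 (adjusted p = 0.0282) and the talin competitor Dok1 at 0.24 (adjusted p = 0.0414) rose, and both calls were lost with the GC trend removed (adjusted p = 0.0691 and 0.842).

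Of 8 tested hemidesmosome partners of Itgb4, 1 rose and 1 fell, with a median of -0.20. The gene that fell, Dst, a plakin that joins Itgb4 to keratin, went from 561 to 471 CPM (-0.27, adjusted p = 0.00263), was at 80.5 CPM in WT replicate 1, and was at -0.12 (adjusted p = 0.0382) with the length trend removed and -0.045 (adjusted p = 0.637) on log2(TPM + 1) values. Plec at 0.56 (adjusted p = 0.114) and Lama3 at -0.68 (adjusted p = 0.0946), named after their values were seen, were not called.

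Of 18 tetraspanins and surface partners 7 rose and 3 fell. Slc3a2, which binds beta tails and carries amino acid transporters, rose from 169 to 307 CPM (0.84, adjusted p = 2.63e-06), while WT replicate 1 stood at 316 CPM among the knockdown libraries. Cd47, a partner of Itgav pairs, fell from 347 to 260 CPM (-0.43, adjusted p = 0.00019) and was at -0.18 (adjusted p = 0.0747) on log2(TPM + 1) values. The tetraspanin web proteins Ptgfrn and Igsf8 differed in direction, Ptgfrn from 458 to 345 CPM (-0.42, adjusted p = 5.09e-05) and Igsf8 from 50.1 to 72.0 CPM (0.51, adjusted p = 0.00433). Removal of the GC trend brought Igsf8 to 0.27 (adjusted p = 0.0204). Of 21 integrin traffic genes 5 rose and 3 fell. Among them were the endosomal GTPases Rab5b at -0.24 (adjusted p = 0.00406) and Rab7 at 0.23 (adjusted p = 0.00201), Vps35 of the retromer at -0.20 (adjusted p = 0.00471) and Chmp4b of the ESCRT machinery at 0.21 (adjusted p = 0.0191). With the GC trend removed, Vps35 at -0.04 (adjusted p = 0.536) and Chmp4b at 0.12 (adjusted p = 0.154) were not called.

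Several of these calls rested on a few libraries. Leaving out WT replicate 3 as well, which leaves 1 WT library, ended the calls of Itgb3 (adjusted p = 0.0821), Kank2 (adjusted p = 0.0582), Igsf8 (adjusted p = 0.0521) and Rab5b (adjusted p = 0.0626). Leaving out WT replicate 2 instead ended that of Rab7 (adjusted p = 0.0509), and either step ended those of Vps35 (0.0653 and 0.0555), Ppm1f (0.133 and 0.186), Dok1 (0.177 and 0.197) and Chmp4b (0.15 and 0.104), given as adjusted p without WT replicate 3 and then 2. Without knockdown replicate 2, Ppm1f (adjusted p = 0.0839) was not called, and without knockdown replicate 3, Dok1 (adjusted p = 0.101) and Chmp4b (adjusted p = 0.0609) were not. On log2(TPM + 1) values, limma-trend did not call Kank1 (adjusted p = 0.181), Itgb3 (-0.16, adjusted p = 0.185), or Kank2, Igsf8, Ppm1f, Ptpn12, Rab5b, Vps35 and Chmp4b (adjusted p from 0.0504 to 0.0875). Adam9, Spp1, Thbs1, Ccn1, Yes1, Parvb, Crkl, Bcar1, Ptgfrn and Slc3a2 kept their calls in all 19 settings over 5 libraries.

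**Figure D5:**
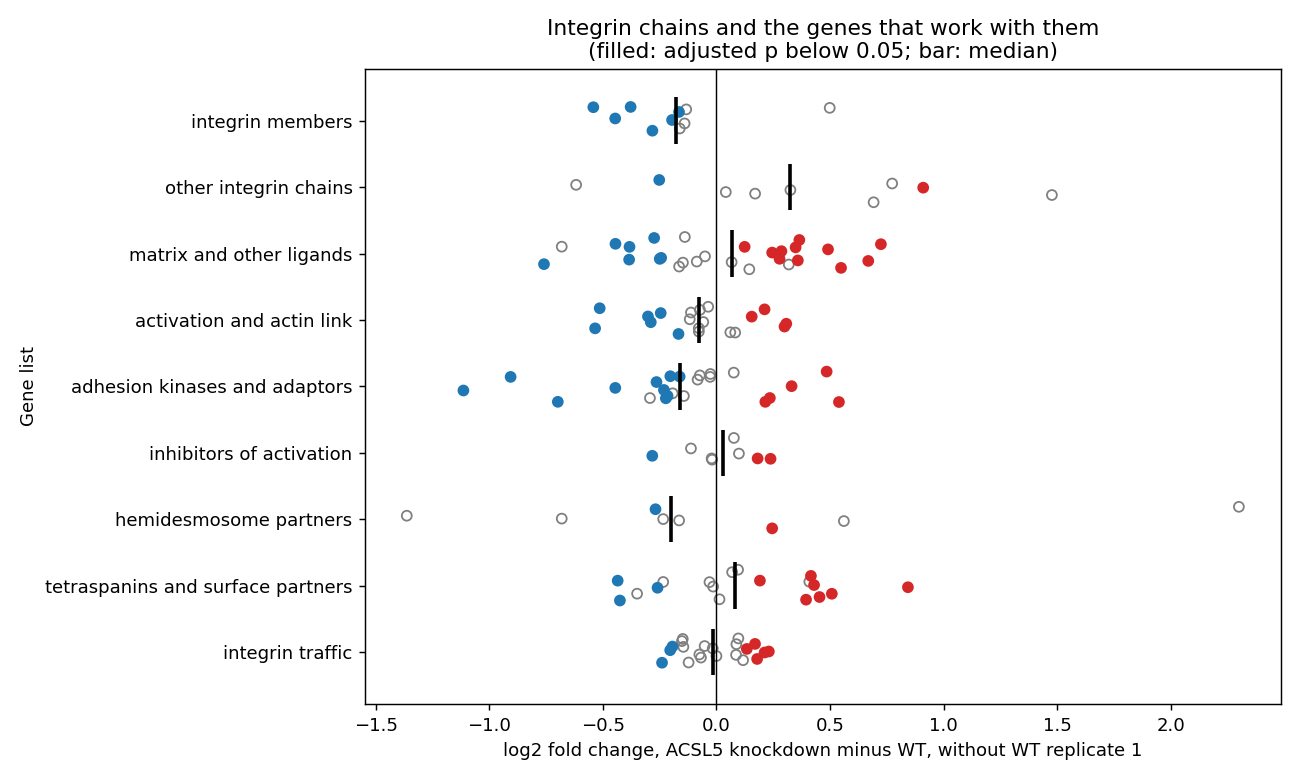
Log2 fold change over 5 libraries (x axis) of each tested gene in the integrin set and the 8 companion lists (y axis), red where called higher, blue where called lower and open grey where not called. The integrin chains hold 6 blue points and no red point, while every companion list holds both colours.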

How the data were processed

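Gene expression was measured by RNA sequencing in 3 WT and 3 ACSL5 knockdown libraries, grouped by the genotype label. The authors deposited expected counts per gene and library, of which 10.1% to 13.0% were not whole numbers, so reads shared between overlapping genes may be split. The authors also deposited TPM for the same 57508 genes, used for levels, order and shares of chains. Group mean columns in both tables were not used. Per the submitters' processing notes, the tools were DESeq2, fastp, HISAT2 and StringTie (no version or role given) and the builds GRCh38 and hg38, although the identifiers in the tables are mouse ones. Strandedness is not given in the sources used here. Itga1, Itga6, Itgav and Itgb4 overlap other annotated genes, antisense ones among them, and their reads could not be told apart from these.

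Expected counts were rounded, filtered with filterByExpr and TMM-scaled, and the groups then went into the quasi-likelihood test of edgeR 4.0.16 in R 4.3.3 (robust, two-sided, Benjamini-Hochberg over all genes tested, called at an adjusted p below 0.05). CPM values are scaled by TMM over the 6 libraries. The script was tested on simulated data. Alternatives used DESeq2 1.42.0, limma 3.58.1 (voom, and trend on log2(TPM + 1) or log2(TPM + 0.1)), other scaling and filters, removal of length or GC trends (lowess, span 0.3, GC known for 96.3% of tested genes), a replicate block, and each library left out. The shares without WT replicate 1 were added after seeing the data. Positions, GC content and UTRs come from GENCODE M21 on GRCm38, by Ensembl identifier.

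The chains and lists were chosen with earlier results of these data known. Named genes are the chains, Acsl5, further integrin chains with a mean of at least 1 TPM, and the top gene of each marker list by TPM. Of each other list they are up to 2 genes with the highest and 2 with the lowest log2 fold changes among called genes of at least 5 CPM whose groups did not overlap over 5 libraries. A gene that this rule names is not reported here.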

Additional observations from a re-analysis of the deposited data

How the results depend on the processing

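Over 6 libraries, 0 chains were called in each setting except with the length trend removed, where 1 was, and 0 to 6 were called when 1 library was left out. The 6 came without WT replicate 1, and the cause was not tested. Of the companion genes, 12 were called by DESeq2, where 7.68% of all genes were, and 13 with the length trend removed, where 6.08% were. With 1 library left out 0 to 67 were called, where 0% to 34.3% of all genes were. Acsl5 passed the threshold with library totals (-2.31), no filter (-2.40), DESeq2 (-2.45), limma-voom (-2.43) or no robust estimation (-2.43). It also passed with the length trend removed (-2.60) or the GC trend removed (-2.40). With 1 library left out it lay at -2.50 to -2.32. It passed there without WT replicate 1, but not with any other library left out (adjusted p = 0.280 to 0.486). With the replicate block it did not pass either (-2.42, adjusted p = 0.438). Over 5 libraries, 3 chains were called lower at a threshold of 0.01, where 11.4% of all genes were. Limma-trend called 3 lower on log2(TPM + 1), 3 on log2(TPM + 0.1) and 2 on log2(TPM + 1) without a filter. The shares of all genes called lower there were 7.26%, 7.35% and 1.88%. With 1 knockdown library also left out, 3 to 6 chains were called lower, where 14.3% to 20.3% of all genes were. Leaving out WT replicate 2 or 3 instead leaves 1 WT library, assumed to vary like the others, with Itga6 at -0.53 and -0.55. The companion count was 28 on log2(TPM + 1) and 37 to 82 with 1 more library left out. On log2(TPM + 1), 17.8% of all genes were called. Leaving out 1 knockdown library as well gave 58 to 82 companion genes, where 28.6% to 41.4% of all genes were called. The count of companion genes thus has to be read beside a share of all genes that also moved. The low end of 37 came without WT replicate 3, from a fit with 1 WT library, and is not compared with a share. Of the 10 chains 9 were negative in all 19 settings over 5 libraries.

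Signs turned over 6 libraries as follows. Library totals gave 0.019 for Itga3 and 0.031 for Itgb1. Log2(TPM + 1), with or without a filter, gave 0.17 for Itga1, 0.29 for Itga3, 0.17 for Itga5, 0.053 for Itga6, 0.24 for Itgb1 and 0.10 for Itgb5. The median of all genes stood at 0.26 with the filter and at 0.063 without it. Log2(TPM + 0.1) gave 0.37, 0.29, 0.18, 0.055, 0.24 and 0.10 for the same chains, with all genes at 0.30. Removal of the GC trend gave 0.028 for Itga1, 0.012 for Itgb1 and -0.089 for Itgb4. With 1 library left out, Itga1 lay at -0.38 to 0.14, Itga2 at -0.16 to 0.37, Itga3 at -0.28 to 0.070, Itgb1 at -0.20 to 0.0011 and Itgb4 at -0.13 to 0.57, the lowest each time without WT replicate 1.

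Deviations of same-numbered libraries from their group means correlated at -0.115, 0.0201 and -0.142. With so few libraries and WT replicate 1 apart from the rest, these values cannot show whether replicate numbers pair the libraries. With the replicate number as a block, 6 chains were called lower over 5 libraries and 0 over 6. Over 5 libraries 19.2% of genes were called lower with the block, and 38.0% in both directions together. The block gave 0.012 for Itga1 over 6 libraries. Depth limits Itgb6, with 8 to 35 counts per library, and Itga1 among the others.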

Other observations

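The deposited counts and TPM of Itgav part ways in WT replicate 1. Dividing the count by the TPM gives the transcript length behind a TPM value up to a factor per library. The factor was set by genes with over 100 counts in that library. The length behind Itgav was 3132 bases in WT replicate 1 and 7208 to 7950 bases in the other 5 libraries, 40.9% of their mean. Of 10055 genes with over 100 counts in every library, 1.59% had a lower percentage. The median gene was at 100.4%, and the 5th and 95th percentiles were 56.9% and 129.7%. Itga6 was at 78.9%, Itgb5 at 80.0% and Itga5 at 86.5%. Itgav in WT replicate 1 thus stood at 39.3 TPM, level with the knockdown libraries at 38.7 to 39.4 TPM and below WT replicates 2 and 3 at 49.8 and 52.3 TPM, while its 132 CPM was the lowest of the 6 libraries. Which transcripts of Itgav lie behind this was not tested. The removal of the length trend used the listed 7054 bases for Itgav in every library. The part of this in the call of Itgav over 6 libraries was not tested.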
